A study of Cicer arietinum with 8 samples.

Results

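Signalling transcripts of chickpea (Cicer arietinum) were followed through a week of cold nights on a spotted cDNA array. The 24 features described here were those whose description in the feature list of the array named a protein kinase, a protein phosphatase, a GTP-binding protein or GTPase, calmodulin, calcium, a 14-3-3 protein or a receptor. Descriptions with the words resistance, inhibitor, transport, channel or ATPase were left out. The array held 768 features in all. By description the 24 comprised 13 kinases, 3 receptors, 6 features of GTP-binding proteins and their regulators, which are called GTP switches below, and 2 calmodulin-binding proteins. None of the 24 was described as a protein phosphatase or a 14-3-3 protein. Of the 24, 8 were cDNA clones of chickpea and 16 were clones of grasspea (Lathyrus sativus), a related legume, so that chickpea RNA was hybridised to grasspea sequence on the latter. Features are named by the accession in the feature list.

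Protein kinases pass signals on by transferring phosphate to other proteins, and receptor-like kinases of plants carry an outer domain that senses a ligand at the cell surface. Small GTP-binding proteins switch between a GTP-bound active and a GDP-bound inactive form, and direct vesicle traffic, the cytoskeleton and signalling. Cold raises cytosolic calcium in plant cells within moments, and calmodulin is one of the proteins that bind that calcium and act on targets, among them transcription factors and kinases.

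The samples were leaves and a pool of flowers, buds and early pods, called flowers below, of 4 genotypes. Sonali (Tolerant1) and ILC 01276 (Tolerant2) were labelled cold tolerant, and Amethyst (Susceptible1) and DOOEN (Susceptible2) cold susceptible. The RNA was pooled from 5 treated plants or from 5 control plants without chilling, and a hybridisation set both against each other in opposite dyes. Starting 2 weeks after flowering, the treated plants had been chilled to 5 °C on 7 nights between days of 15 to 25 °C. Each of the 8 groups of genotype and tissue had 3 replicates, which the study calls biological, but in Tolerant2 flowers and Susceptible2 flowers replicate 3 was identical to replicate 1 in all spot values and the pair was counted once, which left 22 distinct hybridisations, 12 of leaves and 10 of flowers.

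The hybridisations differed in quality. The share of spots left unflagged in both channels was 17.7% in replicate 1 of Tolerant1 leaves, 30.6% in replicate 1 of Susceptible1 leaves, and 42.5% and 42.4% in replicate 1 of Tolerant1 and Susceptible1 flowers, against 56.7% to 76.4% in the other 18. These 4 dim hybridisations were quantified in a period of their own by the header times, and in replicate 1 of Tolerant1 leaves only 2 of the 24 signalling features gave a ratio. As a check of the tissue labels, 7 features of chlorophyll a/b binding proteins, which belong to the light-harvesting complexes of leaves, could be tested in the control plants (9 were on the array). The limma model (adjusted p below 0.05) called 2 of them higher in leaves and 1, DY475554, lower in leaves, and 5 of the 7 estimates were above 0. Over all 411 features tested it called 17% higher and 22.1% lower in leaves. With so few markers this check does not decide on the labels.

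Most of the grasspea clones among the signalling features gave little signal. A feature was counted as detected in a channel where the spots averaged 2 times the local background or more, over the 44 channels of the 22 hybridisations. The chickpea clones were detected in a median of 38.5 channels (18 to 43), near the median of 40 over all 559 chickpea features of the array. The grasspea clones were detected in a median of 10.5 channels (3 to 42), against 19 over all 156 grasspea features. The 7 negative control features were detected in 0 to 15 channels, and 12 of the 24 signalling features, all from grasspea, did not exceed the highest of them.

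**Figure D1:**
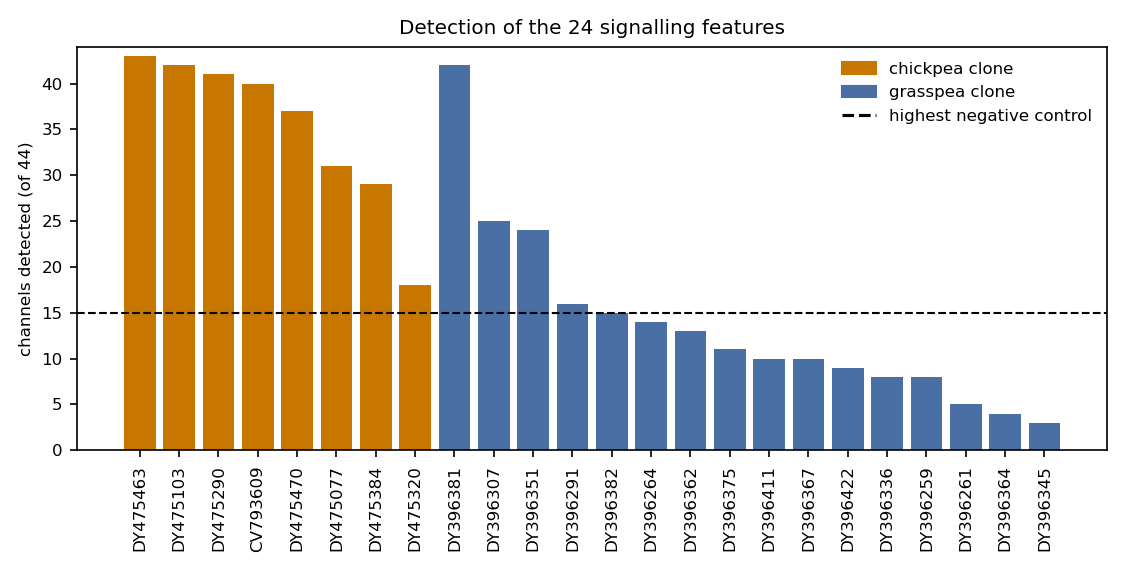
Number of channels, of 44, in which each of the 24 signalling features was detected (bars; chickpea clones in orange, grasspea clones in blue), with the highest negative control at 15 channels as a dashed line. All 8 chickpea clones stand above the line and 12 of the 16 grasspea clones do not.

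All 24 features passed the filter on detection, which asked for 1 channel of 1 replicate only. A ratio needs an unflagged spot in both channels, and the 24 features gave 207 ratios of the 528 possible. At least 2 replicates of all 8 groups measured 6 features: the kinases DY475103 and DY475470, the receptor-like features DY475463 and CV793609, and the GTP switches DY475290 and DY396381. A further 7 could be tested in at least 1 group and 11 in none. The kinase DY396345, which resembles PBS1, an Arabidopsis kinase of disease resistance, and the calmodulin-binding DY396364 gave no ratio on any hybridisation.

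The question of the design was which transcripts change in the cold, and in which genotypes and tissues. No signalling feature passed the test for a cold response in any group. A call needed an adjusted p below 0.05 and a change of at least 2-fold, and limma with Benjamini-Hochberg adjustment over all features called in leaves 1.26% of the features tested of Tolerant1, 0.586% of Tolerant2, 0.797% of Susceptible1 and 0.389% of Susceptible2, and 0% in each of the 4 flower groups. Of the signalling features, 71 pairs of a feature and a group could be tested, 0 were called, 3 had an unadjusted p below 0.05, and 1 changed by at least 2-fold. The 3 were 1 of 10 signalling features tested in Tolerant2 leaves, 1 of 8 in Susceptible1 leaves and 1 of 9 in Tolerant1 flowers. Over all features 11.1%, 9.56% and 13.6% had such a p in these groups, and the lowest share was 1.88%, in Tolerant2 flowers. In 55 of the 71 pairs the 95% interval lay wholly within a 2-fold change in either direction, so a larger change was outside the interval there, while in the other 16 the interval reached beyond it. The estimates were above 0 in 41 pairs and below in 30. The SD over replicates had a median of 0.289 on the log2 scale in these pairs, against 0.327 over all features tested.

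Among the features measured in at least 2 replicates of every genotype of a tissue, 6 in leaves and 7 in flowers, the kinase DY475103 had the highest mean response, and it spread widely between replicates. All ratios below are log2 of cold over control. It measured 1.11 and -0.23 in Tolerant1 leaves (replicates 2 and 3), 0.06, -0.07 and 0.53 in Tolerant2 leaves, -0.08, 1.75 and -0.83 in Susceptible1 leaves, and 1.59, 0.59 and 0.00 in Susceptible2 leaves. In flowers it measured 0.58, 1.54 and 0.00 in Tolerant1, 0.02 and 0.13 in Tolerant2, 0.20, 1.42 and 0.05 in Susceptible1, and 0.19 and 0.07 in Susceptible2. Replicate 2 was the highest value in each of the 4 groups of Tolerant1 and Susceptible1, and the other replicates of those groups lay at 0.20 or lower except replicate 1 of Tolerant1 flowers, so the groups overlapped. On the same feature the control intensity of replicate 2, on the scaled log2 scale, was the lowest of the 3 in Tolerant1 flowers (13.15, against 14.26 and 14.53). So it was in Susceptible1 flowers (13.09, against 14.90 and 14.51). In Tolerant1 leaves the control intensity was 14.05 in replicate 2 and 15.16 in replicate 3. In Susceptible1 leaves replicate 1 was lower than replicate 2 (13.55, against 13.68). As signal over background, replicate 1 was lower than replicate 2 in Tolerant1 flowers (5.40 against 13.4) and Susceptible1 flowers (6.09 against 9.07). The control intensity is also the denominator of the ratio, and its part in the high ratios was not tested. The mean over the 4 genotypes was 0.40 (SE 0.22, adjusted p = 0.331 in limma) in leaves and 0.37 (SE 0.23, adjusted p = 0.847) in flowers, the highest of these 6 and 7 features, and neither passed the test.

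The kinase DY475470 had the lowest mean in leaves among the same 6 features. Its ratios were -0.48 and -0.13 in Tolerant1 leaves (replicates 2 and 3), -0.10, -0.31 and 0.12 in Tolerant2 leaves, -0.06, -0.38 and -0.98 in Susceptible1 leaves, and 0.28, -0.29 and -0.03 in Susceptible2 leaves. Of these 11 values 9 were below 0, and the groups overlapped. In flowers 4 of 8 values were below 0, between -0.49 and 0.39. The mean over leaves was -0.22 (SE 0.11, 95% interval -0.45 to 0.01, adjusted p = 0.259 in limma). Susceptible1 leaves gave 1 of the 3 pairs with an unadjusted p below 0.05 (mean -0.48, adjusted p = 0.446 in limma).

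DY475384 and DY396307 are serine/threonine kinases that the study reports as repressed in leaves of both tolerant genotypes. For DY475384 the study also gives quantitative RT-PCR in the same direction. DY475384 measured -0.40 in replicate 3 of Tolerant1 leaves, its only value there, and -0.05 and -0.10 in replicates 1 and 3 of Tolerant2 leaves. In Susceptible2 leaves it measured 0.17 and 0.21 (replicates 2 and 3), and it had no ratio in Susceptible1 leaves. The 3 values of tolerant leaves thus lay below 0 and the 2 of susceptible leaves above it, all between -0.40 and 0.21. In flowers its 9 values ran from -0.40 to 0.27 with a mean over genotypes of -0.02 (SE 0.10). DY396307, a grasspea clone, measured -0.09 in Tolerant1 leaves (1 value from 1 spot), -0.63 and 0.40 in Tolerant2 leaves, 1.003 and -0.34 in Susceptible1 leaves, and 0.90 in Susceptible2 leaves. Replicates of a group had opposite signs in both groups with 2 values, and no order of the groups could be read. Neither kinase could be tested in Tolerant1 leaves, and in Tolerant2 leaves the adjusted p in limma was 0.974 for both. The deposited table of log2 means, of unstated shift, holds far lower values for the same groups, -2.43 in Tolerant1 and -3.27 in Tolerant2 leaves for DY475384 and -1.12 and -1.14 for DY396307, so the values given here depend on the processing, and the cause of the gap was not tested.

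The other chickpea kinases were DY475077 and DY475320. DY475077 was above 0 in all 8 leaf values, which ran from 0.05 to 0.57 (mean 0.30, SD 0.19), and in 3 of 6 flower values, which ran from -0.29 to 1.11. Leaf values of 0.38 (Tolerant2, replicate 2), 0.54 (Susceptible1, replicate 2) and 0.05 (Susceptible2, replicate 3) each came from 1 spot. For 0.54 and 0.05 the control signal was 1.74 and 1.80 times background, under the detection limit of 2. DY475077 was tested in 3 of the 4 leaf groups, with estimates of 0.25, 0.35 and 0.31 and adjusted p-values in limma of 0.936, 0.781 and 0.999 in Tolerant2, Susceptible1 and Susceptible2. It had too few replicates in Tolerant1 for a mean over genotypes. DY475320 gave 3 ratios, -0.46, -0.38 and 0.33, each in another group.

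Of the grasspea kinases, DY396351 was measured most often, in 12 hybridisations with a range of -0.58 to 0.19, of which 8 values were below 0. DY396264 gave 6 values from -1.33 to 0.83, DY396422 gave -0.67 in Tolerant1 flowers and 1.54 in Susceptible1 flowers, and DY396375 gave 0.14 in Tolerant2 flowers only. The remaining grasspea kinases, DY396382 and DY396362, held the lowest ratios of all. DY396382 measured -1.34 and -2.96 in replicates 1 and 2 of Tolerant1 flowers, and between 0.12 and 1.12 in its other 6 values, so Tolerant1 flowers did not overlap any other group. The mean of Tolerant1 flowers was -2.15 (SE 0.41, unadjusted p = 0.00207, adjusted p = 0.221 in limma), the 1 pair past 2-fold, and it was singled out after its values were seen. The value of -1.34 came from 2 unflagged spots of a dim hybridisation. Its signals were 1.97 (control) and 1.94 (cold) times background, under the detection limit of 2. The value of -2.96 came from 1 unflagged spot. DY396362 measured -3.23 on the same hybridisation, from 5 spots, and 0.12, 0.33 and -0.67 elsewhere.

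That hybridisation had the highest raw signals over background of both kinases. In replicate 2 of Tolerant1 flowers the control signal of DY396382 was 94.2 times its background and the cold signal 44.2 times, where the medians over the other hybridisations were 1.87 and 1.73. For DY396362 the control signal was 50.1 times and the cold signal 20.4 times, against medians of 1.56 and 1.54. Signals at least 5 times the median elsewhere were found in that control channel for 67 of the 738 features kept (9.08%) and for 2 of the 24 signalling features (8.33%). The part of this hybridisation in the low ratios was not tested beyond leaving it out, which left DY396382 at -1.34, the value of replicate 1. Replicate 2 of Susceptible1 flowers was bright for both kinases too. Its control and cold signals were 19.7 and 18.7 times background for DY396382, and 8.72 and 13.2 times for DY396362. The ratios there were 1.12 for DY396382 and -0.67 for DY396362.

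The receptor-like features DY475463 and CV793609 were tested in all 8 groups and not called in any, and the interval of CV793609 in Susceptible1 flowers (-1.03 to 0.35) reached past 2-fold. DY475463, similar to a protein-tyrosine-kinase receptor, measured 0.25 and 0.10 in Tolerant1 leaves (replicates 2 and 3), 0.52, -0.17 and 0.14 in Tolerant2 leaves, 0.64, 0.59 and -0.39 in Susceptible1 leaves, and 0.48, -0.28 and -0.05 in Susceptible2 leaves. In flowers its 10 values lay between -0.35 and 0.45. CV793609, similar to an elicitor-inducible receptor-like protein (elicitors are molecules of pathogens that set off defence), measured 0.61 and -0.64 in Tolerant1 flowers (replicates 2 and 3), 0.50 and -0.55 in Tolerant2 flowers, -0.66 and -0.03 in Susceptible1 flowers, and 0.17 and -0.58 in Susceptible2 flowers. Its mean over flowers of -0.15 (SE 0.16, adjusted p = 0.897 in limma) was the lowest among the 7 features measured in every genotype of that tissue, and its 12 leaf values lay between -0.52 and 0.43. The remaining receptor, the grasspea receptor-like kinase DY396261, gave 1 ratio, 0.04 in Susceptible2 flowers.

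The sign of several of these ratios followed the dye. In each group 1 hybridisation carried the cold-treated RNA in Cy3 and the others in Cy5. CV793609 was below 0 in all 8 hybridisations with cold RNA in Cy3 (mean -0.40, SD 0.21) and above 0 in 10 of 12 with cold RNA in Cy5 (mean 0.15, SD 0.33). DY475463 was below 0 in 7 of 8 (mean -0.18, SD 0.16) and above 0 in 12 of 13 (mean 0.29, SD 0.23). DY475103 had means of -0.04 (SD 0.40, n = 8) and 0.68 (SD 0.70, n = 13), whereas the GTP switch DY475290 had means of 0.04 (SD 0.32, n = 8) and 0.12 (SD 0.31, n = 12), which differed by less than the spread between hybridisations. With a dye term in the limma model the mean responses were 0.32 (SE 0.20) in leaves and 0.31 (SE 0.21) in flowers for DY475103 and -0.15 (SE 0.12) in flowers for CV793609, and no signalling feature was called.

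**Figure D2:**
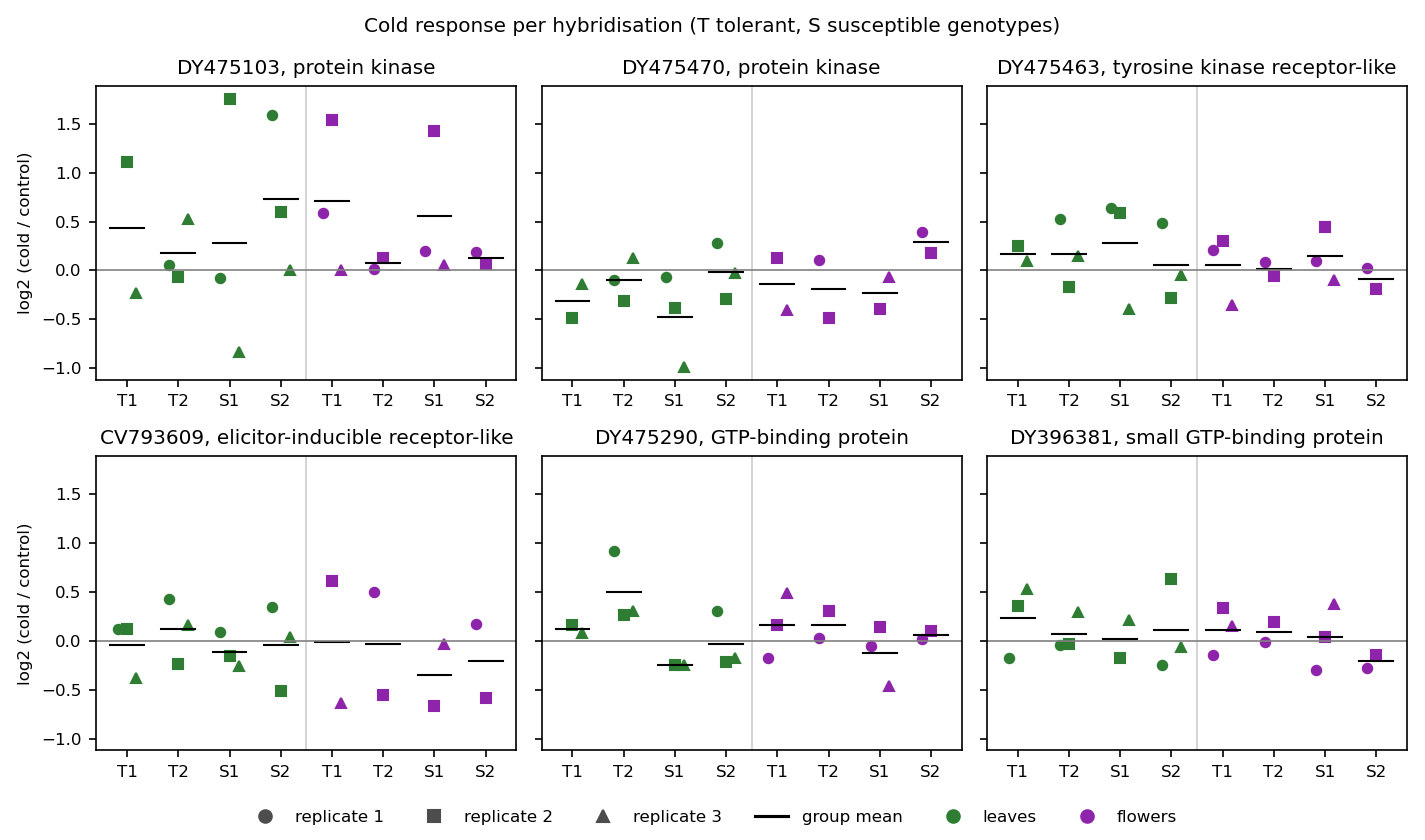
Log2 ratio of cold over control per hybridisation (vertical axis) for the 6 signalling features measured in all 8 groups (T1 and T2, tolerant genotypes; S1 and S2, susceptible genotypes; leaves in green, flowers in purple). Symbols mark replicates and bars the group means; cold RNA was in Cy3 in replicate 3 of T1 and S1 and in replicate 2 of T2 and S2. DY475103 reaches 1.75 in replicate 2 of S1 leaves, and each panel holds values on both sides of 0. In the panel of DY475290, S1 leaves (mean -0.25) do not overlap T1 leaves (mean 0.12) or T2 leaves (mean 0.50).

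The GTP switches included 1 feature whose leaf response leaned apart between tolerant and susceptible genotypes. DY475290, a chickpea GTP-binding protein, measured 0.16 and 0.08 in Tolerant1 leaves (replicates 2 and 3), 0.92, 0.27 and 0.31 in Tolerant2 leaves, -0.25 and -0.24 in Susceptible1 leaves (replicates 2 and 3), and 0.31, -0.21 and -0.18 in Susceptible2 leaves. All 5 values of tolerant leaves were above 0 and 4 of the 5 of susceptible leaves were below it, and replicate 1 of Susceptible2 overlapped the tolerant range. The tolerant mean was 0.31 and the susceptible mean -0.14, a difference of 0.45 (SE 0.21, 95% interval 0.01 to 0.88, unadjusted p = 0.0452, adjusted p = 0.995 in limma), which did not pass. Limma called 0% of the 445 features in this comparison in leaves and 0% of 446 in flowers, with 8 and 1 features at an unadjusted p below 0.05. In Tolerant2 leaves alone the mean was 0.50 (SE 0.18, unadjusted p = 0.0152, adjusted p = 0.251). In flowers the same contrast of DY475290 was 0.19 (SE 0.21).

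DY396381 and DY396367 share the description small GTP-binding protein, and both are grasspea clones. DY396381 was detected in 42 channels and DY396367 in 10, below the highest negative control. DY396381 measured -0.17, 0.35 and 0.53 in Tolerant1 leaves, -0.04, -0.03 and 0.29 in Tolerant2 leaves, -0.17 and 0.21 in Susceptible1 leaves, and -0.24, 0.63 and -0.06 in Susceptible2 leaves, and its 10 flower values ran from -0.30 to 0.38. Its means were 0.11 (SE 0.10) in leaves and 0.01 (SE 0.11) in flowers. DY396367 gave a single ratio, 1.05 in replicate 2 of Susceptible1 leaves, a hybridisation on which DY396381 measured -0.17, the only one with values of both clones, and there they had opposite signs.

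Vesicle traffic was represented by DY396259, a homolog of SAR1A, which starts the budding of vesicles from the endoplasmic reticulum, and by DY396291, a putative activator of the GTPase activity of ARF1, a switch of vesicle budding at the Golgi. DY396259 gave ratios of 0.64 in Susceptible1 leaves and 0.07 in Susceptible2 flowers. DY396291 gave 1.25 in Susceptible1 leaves, -0.07 in Tolerant2 flowers and 0.03 and -0.03 in Susceptible2 flowers. DY396336, the remaining GTP switch, gave 0.43 in Susceptible2 flowers. The 3 leaf ratios of DY396367, DY396259 and DY396291 all came from replicate 2 of Susceptible1 leaves, on which 22 of the 24 signalling features were detected in the cold channel and 10 in the control channel.

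Calcium signalling was represented by DY396411 and DY396364, both described as ER66. ER66 was named as an ethylene-responsive gene of tomato and belongs to the calmodulin-binding transcription activators, a family that in Arabidopsis takes part in the induction of cold-responsive genes. DY396411 was detected in 10 channels and gave 0.13 in Tolerant2 flowers (1 spot) and 1.34 in replicate 2 of Susceptible1 flowers (2 spots). DY396364 was detected in 4 channels and gave no ratio, so the clones could not be compared. In the control channels of leaves neither was detected on any of the 12 hybridisations, so their transcripts were not detectable at this signal.

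Averaged over the 4 genotypes, the responses of the well-measured signalling features lay within narrow bounds. In leaves 6 of them could be tested and 0 were called, where limma called 9.66% of all 445 features (43) at an adjusted p below 0.05. Their median was 0.10, against 0.00 over all features tested, with 4 of 6 above 0. In flowers 7 could be tested and 0 were called, where limma called 1.12% of 446 features (5), and the median was 0.01. At an unadjusted p below 0.05 there were also 0 in either tissue. Each of the 13 intervals lay inside a 2-fold change, the widest being that of DY475103 in flowers (-0.13 to 0.86), followed by DY475103 in leaves (-0.07 to 0.87). For leaves minus flowers 0 of 6 were called, against 1.72% of 406 features, and the differences ran from -0.15 for DY475470 to 0.13 for DY475463.

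**Figure D3:**
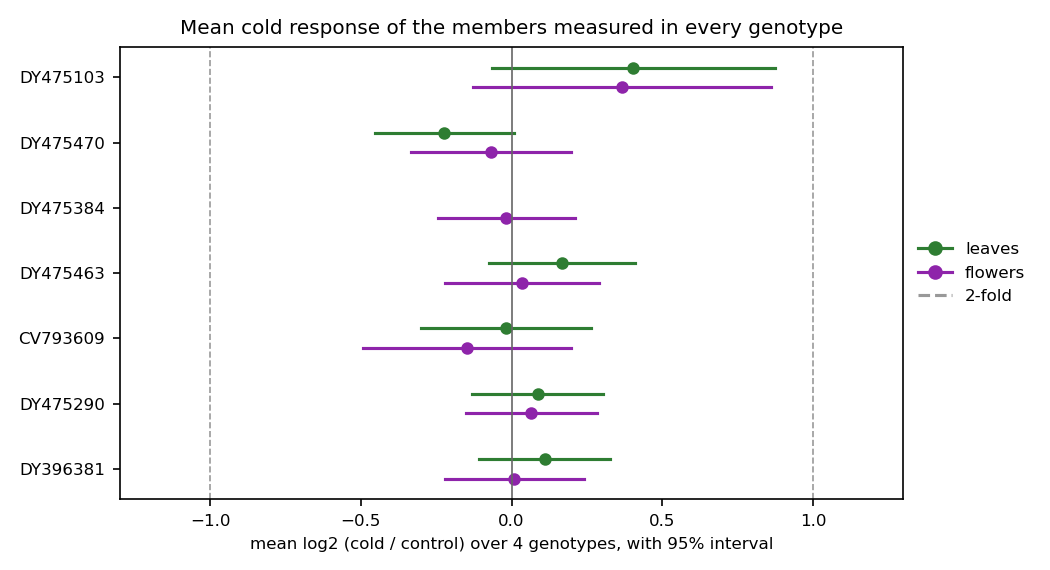
Mean log2 ratio of cold over control over 4 genotypes (points) with its 95% interval from limma (lines), in leaves (green) and flowers (purple), for the signalling features with at least 2 replicates in every genotype of the tissue. All 13 intervals lie between the dashed lines of a 2-fold change, and DY475103 has the highest mean in both tissues (0.40 and 0.37).

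Unlike the cold responses, the levels in control plants differed between tissues for some signalling features. The control channel alone was tested, with a term for its dye. DY475463, similar to a protein-tyrosine-kinase receptor, and the GTP-binding protein DY475290 were lower in leaves than in flowers, and these were 2 of the 6 signalling features tested. Limma called 39.2% of 411 features in this comparison, 22.1% lower in leaves and 17% higher, so 2 of 6 is near the share over all features. Transcripts held by fewer cells of a type and transcripts at a lower level per cell cannot be told apart in such tissue samples.

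The log2 control level of DY475463 was 13.28 and 12.67 in Tolerant1 leaves against 14.19, 13.55 and 14.64 in Tolerant1 flowers. In Tolerant2 it was 12.79, 13.51 and 12.99 in leaves against 14.08 and 14.55 in flowers. In Susceptible1 it was 13.06, 12.45 and 12.48 in leaves against 14.36, 13.16 and 14.29 in flowers, and in Susceptible2 13.37, 13.77 and 13.16 against 14.31 and 14.10. Within each genotype every leaf value was below every flower value. The difference was -1.09 (SE 0.20, adjusted p = 0.000692 in limma), which is 2.13-fold lower in leaves, and within the 3 quantification periods it was -1.21, -1.19 and -0.997.

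For DY475290 the control level was 12.002 and 12.80 in Tolerant1 leaves against 13.86, 13.39 and 13.15 in flowers, and 11.80, 12.01 and 11.55 in Tolerant2 leaves against 14.36 and 13.43. It was 11.72 and 13.32 in Susceptible1 leaves against 14.30, 12.93 and 12.87 in flowers, and 12.91, 13.05 and 12.07 in Susceptible2 leaves against 13.95 and 13.91. Leaves and flowers overlapped in Susceptible1 and not in the other genotypes. The difference was -1.32 (SE 0.27, adjusted p = 0.00187 in limma), which is 2.49-fold lower in leaves. Within quantification periods 2 and 3 it was -0.62 and -1.68, and period 1 held no leaf value. In the cold-treated channel, an alternative added after the data were seen, the differences were -0.92 (adjusted p = 0.00401 in limma) for DY475463 and -1.204 (adjusted p = 0.00721) for DY475290, and DY475077 was called too, at -0.59 (adjusted p = 0.0241).

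**Figure D4:**
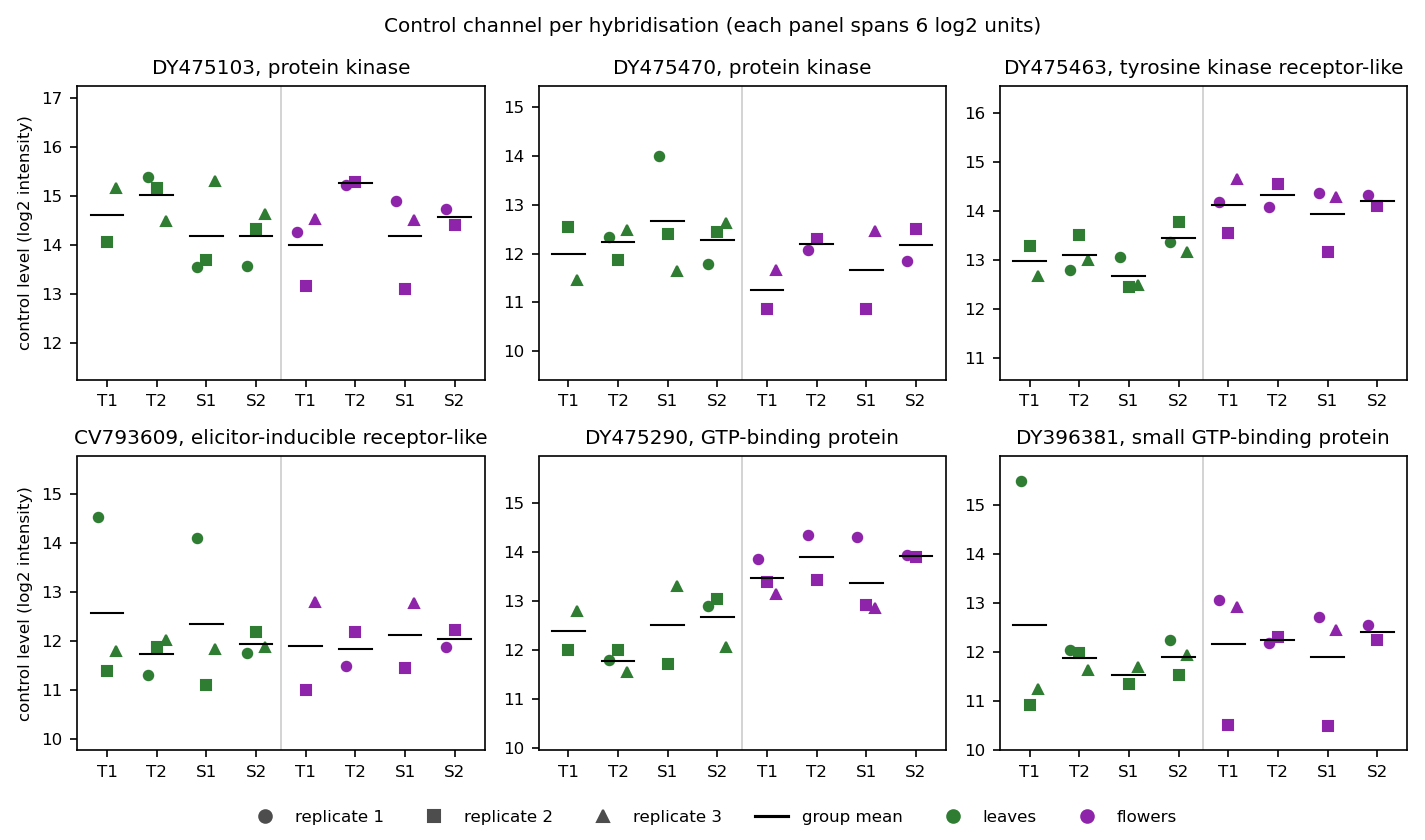
Control channel level per hybridisation (vertical axis, log2 intensity after loess and Aquantile) of 6 signalling features in leaves (green) and flowers (purple) of the 4 genotypes; symbols mark replicates and bars the group means. DY475463 and DY475290 lie lower in leaves than in flowers, with means of 13.04 against 14.15 and 12.35 against 13.67, and the other panels overlap between tissues.

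The remaining 4 did not pass. The kinase DY475470 had the largest positive difference, 0.47 (SE 0.34, 95% interval -0.25 to 1.195, adjusted p = 0.306 in limma). Its control level in leaves was 12.53 and 11.45 in Tolerant1, 12.33, 11.87 and 12.48 in Tolerant2, 13.98, 12.39 and 11.63 in Susceptible1 and 11.79, 12.44 and 12.62 in Susceptible2, and it lay between 10.86 and 12.51 in flowers. The value of 13.98 was from 1 spot of a dim hybridisation. DY475103 differed by 0.02 (SE 0.27), CV793609 by 0.22 (SE 0.47) and DY396381 by -0.21 (SE 0.53), and the intervals of CV793609 and DY396381 reached beyond 2-fold. Between tolerant and susceptible control plants limma called 0 of 6 signalling features in leaves and 0 of 7 in flowers, where it called 0% of 449 and 0% of 456 features. At an unadjusted p below 0.05 there were also 0.

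Signalling features whose descriptions fell outside the rule were looked at beside the 24. These 13 included 2 protein kinase C inhibitor-like proteins, a glycogen synthase kinase, 2 histidine-containing phosphotransfer proteins, a guanine nucleotide regulatory protein, a calcium-binding carrier, a cyclic ion channel and WD repeat proteins. For the mean response of leaves 5 of them could be tested and 2 were called, where 9.66% of all features were, both phosphotransfer proteins and both higher in the cold. Such proteins carry phosphate from receptor histidine kinases to response regulators, and in Arabidopsis they serve cytokinin signalling.

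DY396300, a grasspea clone similar to ATHP3 of Arabidopsis, measured 0.62 and 0.56 in Tolerant1 leaves (replicates 2 and 3), -0.40, 0.20 and -0.21 in Tolerant2 leaves, 0.96 and 0.67 in Susceptible1 leaves (replicates 2 and 3) and 0.21, 0.89 and 0.80 in Susceptible2 leaves. The chickpea clone DY475511 measured 0.52 and 1.02, then 0.06, 0.04 and -0.13, then 0.78 and 0.57, and then 0.73, 0.56 and 0.06 in the same groups and replicates. For both clones 3 genotypes were above 0 in every leaf replicate, while Tolerant2 leaves lay around 0. The means over the 4 genotypes were 0.48 (SE 0.10, adjusted p = 0.00585 in limma) for DY396300 and 0.47 (SE 0.10, adjusted p = 0.00628) for DY475511, which are 1.39-fold changes, and the call of DY396300 was lost with flagged spots kept (0.28, adjusted p = 0.233) and with a term for the first quantification period (0.51, adjusted p = 0.255 in limma). Whether both clones hybridise to the same transcript was not tested.

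In flowers the means of both were near 0, at 0.02 (SE 0.10) for DY396300 and -0.06 (SE 0.11) for DY475511. The difference between leaves and flowers was 0.46 (SE 0.14, adjusted p = 0.191 in limma) and 0.53 (SE 0.15, adjusted p = 0.114), and neither passed. Tolerant2 flowers were below 0 for both clones, at -0.76 and -0.44 for DY396300 and -0.20 and -0.50 for DY475511. The contrast of tolerant and susceptible leaves did not pass for DY396300 (-0.50, SE 0.20, adjusted p = 0.995) or DY475511 (-0.18, SE 0.20). Of the other 11 features none was called for a cold response. In control plants the WD repeat protein DY475550 (-1.22, SE 0.22, adjusted p = 0.00075 in limma) and the cyclic ion channel DY475468 (-0.53, SE 0.15, adjusted p = 0.0149) were lower in leaves than in flowers.

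**Figure D5:**
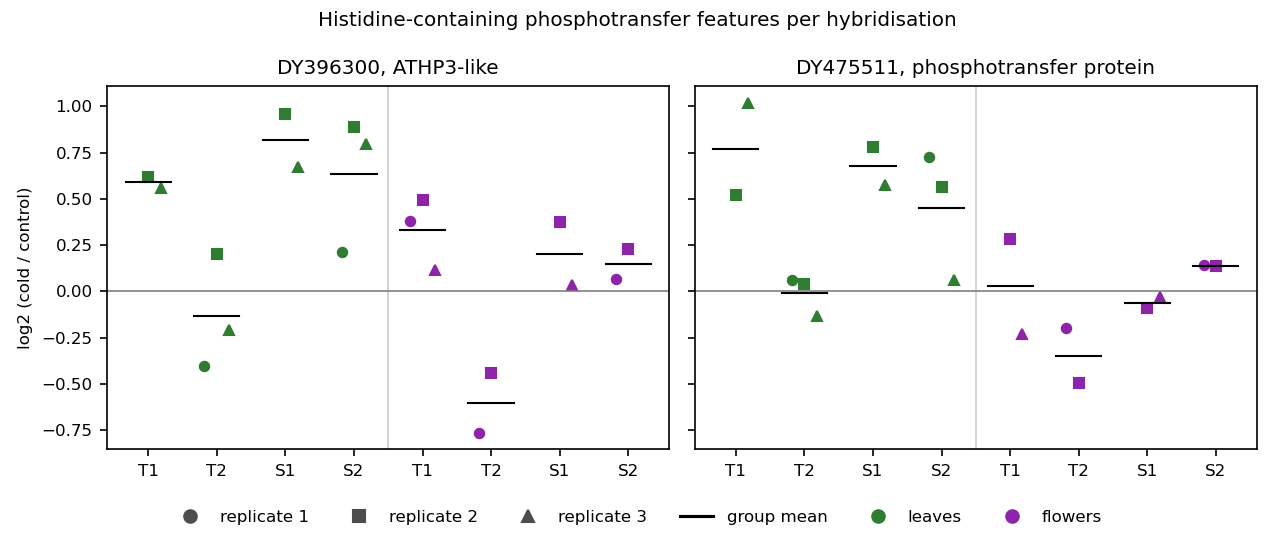
Log2 ratio of cold over control per hybridisation (vertical axis) of the histidine-containing phosphotransfer features DY396300 and DY475511 in leaves (green) and flowers (purple) of the tolerant (T1, T2) and susceptible (S1, S2) genotypes; symbols mark replicates and bars the group means. In leaves every value of T1, S1 and S2 lies above 0, with T2 around 0.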

How the data were processed

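Cold-treated and control RNA was hybridised in 2 channels to a 6-fold replicated cDNA array. The deposited scanner files give spot intensity, local background and flags from ImaGene, without normalization. A second table of the authors holds log2 means per group (local background subtracted, flagged spots removed, LOWESS, shifted log2 of unstated shift), which was used only as an alternative. File names gave the dyes and replicate numbers, and the headers matched these dyes in 22 of 24 hybridisations and named none in 2. Features were joined to the feature list by print order, and 732 of 732 checked positions matched.

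Intensities were corrected with normexp (offset 50) in limma 3.58.1 (R 4.3.3). Log2 ratios were normalized by loess per hybridisation (span 0.3, 4 iterations, flagged and control spots at weight 0), flagged spots were left out, swapped hybridisations turned, and the 6 spots averaged. Features at least 2 times background in 1 channel of 1 replicate were kept (738 of 756). Of their values 34.2% were missing. One limma model over 8 groups, fitted across all features, gave two-sided tests with Benjamini-Hochberg adjustment, and a feature needed at least 2 replicates in each group of a comparison. Group responses were called at an adjusted p below 0.05 and 2-fold, and contrasts at any fold. Fold changes were computed after the offset, which makes the changes of dim features smaller. Control channels were scaled between arrays (Aquantile) and fitted with a dye term. The fits were run on simulated data with independent hybridisations and a spread scaled down from that of Tolerant2 leaves. The correlation between same-numbered hybridisations, given below, was not simulated, so these runs cannot show how the fits behave under it. The number of arrays limits the precision.

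Each of the 24 features is named. Replicate values are given for features called in a comparison, for DY475384 and DY396307, for the highest and lowest mean response per tissue, for features of 1 description, and for the largest differences in control level, and those of other features were added after the values were seen. The features, lists and tests were chosen with earlier results of these data known. Alternatives covered background correction, normalization, flags, filters, dyes, blocks, weights and left-out replicates. The reference gene table matched 0 of the 24 accessions, so genome positions and clone sequences were not analysed here.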

Additional observations from a re-analysis of the deposited data

Results flagged for a closer look

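Among the signalling features 3 pairs of groups, of 91 looked at, had replicates on opposite sides of 0, and these differences between groups were not tested as such. The same count was not made over all features, so 3 of 91 is not read as an excess. The GTP-binding protein DY475290 was below 0 in both replicates of Susceptible1 leaves (mean -0.25) and above 0 in each replicate of Tolerant1 leaves (mean 0.12) and Tolerant2 leaves (mean 0.50). Susceptible1 leaves minus Tolerant1 leaves was -0.37 and Susceptible1 leaves minus Tolerant2 leaves was -0.74. The serine/threonine kinase DY475384 was above 0 in both replicates of Susceptible2 leaves (mean 0.19) and below 0 in both of Tolerant2 leaves (mean -0.07), a difference of 0.26, and in each group 1 of its values came from 1 spot.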

How the results depend on the processing

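In the cold response the signalling features kept 0 calls for tolerant minus susceptible genotypes under 14 alternatives and 12 left-out replicates in leaves or 10 in flowers, and for leaves minus flowers under 15 alternatives and 22 left-out replicates, and DY475463 and DY475290 were called in control levels under each alternative run on them (-1.22 to -0.84 and -1.57 to -1.08). With flagged spots kept, 1 feature was called in the mean of leaves (DY475077, 0.38, adjusted p = 0.0480 in limma) and 4 in control levels (DY475077 at -0.66 and DY396411 at -0.76 were added). Array weights added DY396381 (-0.80) and median scaling without loess added DY475103 (0.75) to the latter. Without replicate 3 of Tolerant1 flowers, where DY396382 has no value, its -2.15 was called (adjusted p = 0.0491 in limma), so the count of responses per group ran from 0 to 1 over the left-out replicates. The methods' t-test called 0 after adjustment, and 0 pairs passed an unadjusted p of 0.05 with 2-fold. The deposited table of log2 means, which has no test, held 12 pairs at 2-fold or more, 4 above and 8 below 0. Over all features, 73 of 542 values were that far below 0 in Tolerant1 leaves and 79 of 539 in Tolerant2 leaves. In Susceptible2 leaves it was 57 of 538. The signalling features held 2 of 9, 2 of 11 and 1 of 14 in these groups. In Susceptible1 leaves 76 of 609 were below and 31 above, against 1 and 3 of 12 signalling values. In Susceptible1 flowers 42 of 595 were below and 41 above, against 2 and 1 of 15. Among the 12 pairs were DY475384, at -2.43 in Tolerant1 and -3.27 in Tolerant2 leaves, and DY396307, at -1.12 and -1.14. From the scanner files DY475384 in Tolerant2 leaves ran from -0.30 to 0.01, and the cause was not tested. At detection limits of 1.5 and 3 times background, 16 and 6 features were detected in 22 or more of the 44 channels, against 10 at 2 times.

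Signs turned for DY475470 in the mean of leaves with a term for the first quantification period (0.035), for CV793609 in flowers with median centring (0.020) and over left-out replicates (-0.30 to 0.0082), for DY475384 in Tolerant2 leaves with loess within sub-arrays (0.015), and for DY396307 in Tolerant2 leaves with median centring (0.082), array weights (0.066) and over left-out replicates (-0.63 to 0.40). None of these was called. DY396300 lost its call with flagged spots kept and with the period term (0.51, adjusted p = 0.255 in limma).

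Over all features and apart from left-out replicates, calls per group numbered 0 to 30 (15 in the fit reported, 5 to 31 over left-out replicates), for the mean of leaves 14 to 62 (43), for the mean of flowers 0 to 12 (5), for leaves minus flowers 0 to 14 (7) and for control levels between tissues 83 to 212 (161). Same-numbered hybridisations of a set and tissue had deviations correlated at a mean of 0.425 over 11 pairs, and their ratios at a mean of 0.453 against 0.106 for replicates of a group, which ties hybridisations of 1 number together in most pairs. One pair was at -0.11, below the 0.1 asked of every pair, and the labels name no shared batch, so the fit reported has no block. With the replicate block (consensus correlation 0.469 for ratios and 0.643 for control levels) the mean of leaves had 27 calls over all features and control levels between tissues 83, with DY475463 at -1.06 (adjusted p = 0.0131 in limma) and DY475290 at -1.32 (adjusted p = 0.0172), and the block called 0 signalling features for a cold response. Where a left-out replicate left 1 value in a group, that value was assumed to vary like the other groups. The period terms, the fit without the first period, the cold-treated channel and flagged spots in the loess curve were chosen after seeing the data. In no group did the 11 untested features give ratios from at least 2 replicates. The part of low signal and of spot flags in this was not tested.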
